A study of Mus musculus with 2 samples.

Results

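Expression of 9 genes that carry cells through the first gap phase of the cell cycle (G1) was measured in differentiating mouse erythroid cells. They are the D cyclins Ccnd1, Ccnd2 and Ccnd3, the cyclin-dependent kinases Cdk4, Cdk6 and Cdk2, and the retinoblastoma (RB) family Rb1, Rbl1 and Rbl2. The genes were taken by symbol, and all 9 were found among the 43346 gene rows of both deposited gene tables. Poly(A) RNA was sequenced from G1E-ER4, an immortalized cell line labelled male. This erythroid line lacks a working Gata1 gene of its own and carries GATA1, the erythroid master transcription factor, joined to an estrogen receptor domain that binds the hormone. All cells had received 10 nM 17beta-estradiol, which switches the fusion protein on, for 30 h. The labels call the 2 libraries biological replicates 1 and 2 of this single group but tie both to 1 biosample, so the spread between them may be technical. With no untreated library analysed here, the data give levels, ratios between genes, transcript usage and the difference between libraries, and no effect of estradiol.

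Sequencing depth was 73681318 expected counts for replicate 1 against 56056404 for replicate 2. Levels are given as TPM, the estimated counts of a gene per effective length, brought to a fixed total in every library, with mean ± SD over the 2 libraries. The erythroid label was checked on 7 listed markers, leaving out Gata1, which the construct carries, a choice made after the data were seen. All 7 reached 1 TPM in both libraries, and their summed level was 223662 TPM in replicate 1 against 230195 TPM in replicate 2. Of 4 progenitor markers 1 did so, with sums of 24.1 and 35.6 TPM. This was Gata2, which made up nearly all of both sums, at 23.05 TPM in replicate 1 against 34.68 TPM in replicate 2. Of 4 megakaryocyte markers 3 reached 1 TPM in both, with sums of 21.8 and 17.7 TPM. None of the 5 myeloid, 3 mast cell and 4 lymphoid markers reached 1 TPM in both. The myeloid sum was 0.32 TPM in replicate 1 against 10.8 TPM in replicate 2. In replicate 2 it came mostly from Mpo (3.96 TPM), Prtn3 (3.76 TPM) and Elane (3.04 TPM). These had 0.19, 0.08 and 0.04 TPM in replicate 1. Csf1r had 0.01 and 0.03 TPM in replicates 1 and 2, and Ly6g had 0 counts in both. The mast cell sums were 0.58 and 0.73 TPM, nearly all from Hdc (0.55 and 0.73 TPM), with Cpa3 at 0 counts. The lymphoid sums were 0.64 and 0.40 TPM. The part of these cell types in the differences between libraries was not tested. All members but Cdk6 overlap a gene on the opposite strand, and without a stated strand setting reads in such stretches cannot be told apart.

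D cyclins are made in response to growth signals and bind CDK4 or CDK6. The active kinases phosphorylate the RB family proteins, which otherwise hold E2F transcription factors in check, and CDK2 with E or A cyclins completes that step and drives S phase. In red cell precursors this axis couples division to maturation: cyclin D3 is known in mice for setting how many divisions erythroblasts complete, and loss of Rb1 in mice is known for disturbed erythroblast maturation.

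Ccnd3, which encodes cyclin D3, was by far the most abundant of the 9 genes. It lies on the plus strand of chromosome 17 (mm10, 47505051 to 47599691, ENSMUSG00000034165.12). It had 1474 TPM in replicate 1 against 1315 TPM in replicate 2, from 176387 and 121675 counts, and ranked 63 among 21474 protein-coding genes. Ccnd2, which encodes cyclin D2 (chromosome 6, 127125162 to 127152193, minus strand, ENSMUSG00000000184.9), had 7.14 TPM in replicate 1 against 7.13 TPM in replicate 2. Both libraries placed it more than 2 orders of magnitude below Ccnd3, and the libraries differed by less for Ccnd2 than for Ccnd3. The ratio of Ccnd3 to Ccnd2 was 206-fold in replicate 1 and 184-fold in replicate 2, or 7.42 ± 0.12 on the log2(TPM + 1) scale (SD, n = 2).

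Ccnd1, which encodes cyclin D1 (chromosome 7, 144929931 to 144939925, minus strand, ENSMUSG00000070348.4), was at the limit of detection. It had 0 counts in replicate 1 and 1 count in replicate 2, and the deposited TPM was 0 in both. Taking 3 counts as the limit that a count of 0 allows gave 0.0112 TPM in replicate 1, on the 3740-base coding transcript of Ccnd1. Against that limit Ccnd3 was at least 131289-fold higher than Ccnd1 in replicate 1. The wider two-sided exact 95% Poisson interval for 0 counts ends at 0.0138 TPM, against which Ccnd3 was 106772-fold higher. In replicate 2 the single count corresponds to 0.00490 TPM with the same kind of interval, of 0.000124 to 0.0273 TPM, and to a Ccnd3 to Ccnd1 ratio of 268444 with an interval of 48181 to 1.06e+07. These limits cover counting error only. Ccnd3 thus held 99.5% ± 0.0405 of the summed TPM of the D cyclin genes and Ccnd2 0.511% ± 0.0405 (SD, n = 2).

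The Ccnd3 gene has annotated transcripts from distal and proximal starts that lie 88416 bases apart, and little of the deposited TPM was on transcripts from the distal, upstream one. The windows around both starts, from 250 bases before to 50 bases after, are shown because the transcript values differ so much between them (RefSeq, build GRCm38.p6, plus strand, 5′ to 3′, capitals mark the bases from the annotated start on).
Ccnd3 downstream start, chr17:47593217-47593516: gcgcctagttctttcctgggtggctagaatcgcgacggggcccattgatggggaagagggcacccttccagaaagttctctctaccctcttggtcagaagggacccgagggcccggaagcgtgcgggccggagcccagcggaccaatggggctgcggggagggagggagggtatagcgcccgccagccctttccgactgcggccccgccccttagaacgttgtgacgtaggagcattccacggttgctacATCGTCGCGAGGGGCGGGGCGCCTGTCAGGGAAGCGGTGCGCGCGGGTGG
Ccnd3 upstream start, chr17:47504801-47505100: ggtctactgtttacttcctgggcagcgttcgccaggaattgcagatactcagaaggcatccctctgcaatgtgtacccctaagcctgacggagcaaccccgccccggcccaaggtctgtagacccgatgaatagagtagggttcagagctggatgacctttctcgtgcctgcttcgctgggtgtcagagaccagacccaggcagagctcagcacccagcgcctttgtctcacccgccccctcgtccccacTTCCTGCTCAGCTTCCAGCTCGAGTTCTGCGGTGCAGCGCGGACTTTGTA

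The 3 transcripts that begin within 500 bases of the downstream start summed to 1162 TPM in replicate 1 against 1070 TPM in replicate 2. That is 78.9% and 81.4% of the Ccnd3 transcript TPM, and 90.2% and 91.4% of its counts. The 13 transcripts that begin at the upstream start summed to 9.73 TPM in replicate 1 against 5.41 TPM in replicate 2, or 0.660% and 0.411% of the TPM. The libraries therefore gave the same order of the starts. The other 5 transcripts begin inside the gene and took 20.5% of the TPM in replicate 1 and 18.2% in replicate 2. The downstream window has a GC content of 67.0% with 28 CG pairs, and the upstream window 59.3% with 15, against a median GC content of 52.7% over 32851 annotated promoter windows. The GATA motif AGATAA, or TTATCT on the other strand, is in neither window, while 11.2% of all promoter windows hold it. Its absence says only that these letters are not in these 300 bases.

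The leading Ccnd3 transcript was Ccnd3-205, of 1977 bases in 5 exons, which begins at the downstream start and whose coding sequence of 876 bases is as long as that of the full upstream transcripts Ccnd3-201 and Ccnd3-202. It took 78.3% of Ccnd3 TPM in replicate 1 and 80.9% in replicate 2. The next was Ccnd3-208, of 931 bases, which begins inside the gene at position 47596068 and has a coding sequence of 288 bases. It took 19.5% of Ccnd3 TPM in replicate 1 and 17.5% in replicate 2. No other Ccnd3 transcript reached 1%.

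Among the kinases, Cdk4, the partner of D cyclins, stood well above Cdk2, and both above Cdk6. Cdk4 (chromosome 10, 127063534 to 127067920, plus strand, ENSMUSG00000006728.8) had 308 TPM in replicate 1 against 232 TPM in replicate 2, from 12547 and 7551 counts, and ranked 391 among protein-coding genes. Cdk2, the kinase of E and A cyclins, lies on the same chromosome (128697939 to 128705031, minus strand, ENSMUSG00000025358.11) and had 11.8 TPM in replicate 1 against 11.2 TPM in replicate 2. Cdk6, the other partner of D cyclins (chromosome 5, 3341485 to 3531008, plus strand, ENSMUSG00000040274.7), had 0.91 TPM in replicate 1 against 0.92 TPM in replicate 2. Cdk6 was thus present in both libraries but under 1 TPM in each, from 214 and 165 counts, whose exact 95% intervals reach about 13.6% and 15.6% to either side. Cdk4 exceeded Cdk6 339-fold in replicate 1 and 252-fold in replicate 2, and Cdk2 26.0-fold and 20.8-fold. On the log2(TPM + 1) scale these ratios were 7.13 ± 0.29 and 4.42 ± 0.23 (SD, n = 2). Cdk4 held 95.5% ± 0.692 of the summed TPM of the 3 kinases, Cdk2 4.13% ± 0.626 and Cdk6 0.330% ± 0.0661 (SD, n = 2).

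The reads of Cdk4 were assigned mostly to a transcript with a short coding sequence. Cdk4-202, of 714 bases with 474 coding bases, took 78.8% of Cdk4 TPM in replicate 1 and 82.5% in replicate 2, from 10118 and 5937 counts. Cdk4-201, the annotated transcript with the longest Cdk4 coding sequence (909 of 2053 bases), took 1.26% in replicate 1 and 2.70% in replicate 2, from 549 and 675 counts. Cdk4-209, annotated as a retained intron transcript of 468 bases, took 14.5% in replicate 1 and 7.49% in replicate 2, so its share differed between the libraries. Because TPM divides by length, the level of Cdk4 depends on this assignment. Divided by the effective length of Cdk4-201 instead, the same counts gave 88.7 TPM in replicate 1 against 70.1 TPM in replicate 2, which is still above Rb1 in both libraries. Per length of its own longest coding transcript Cdk2 had 11.8 and 11.1 TPM in replicates 1 and 2. On this scale the ratio of Cdk4 to Cdk2 was 2.68 as log2(TPM + 1), against 4.42 on the deposited scale. The share of Cdk4 among the 3 kinases given above holds for the deposited scale. Cdk2 was led by Cdk2-202, with 94.5% in replicate 1 and 90.3% in replicate 2. Cdk6 was divided between Cdk6-202, at 66.5% and 67.0%, and Cdk6-201, at 33.5% and 33.0% in replicates 1 and 2, which have coding sequences of the same length (978 bases).

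Rb1 was the most abundant of the RB family. Rb1, which encodes the founding pocket protein pRB (chromosome 14, 73183673 to 73325822, minus strand, ENSMUSG00000022105.6), had 26.2 TPM in replicate 1 against 24.1 TPM in replicate 2. Rbl1, which encodes its relative p107 (chromosome 2, 157145893 to 157204534, minus strand, ENSMUSG00000027641.9), had 4.47 TPM in replicate 1 against 4.07 TPM in replicate 2. Rbl2, which encodes p130, the family member best known from resting cells (chromosome 8, 91070057 to 91123844, plus strand, ENSMUSG00000031666.10), had 3.53 TPM in replicate 1 against 3.74 TPM in replicate 2. The libraries gave the same order, with Rb1 clear of both relatives and a gap between Rbl1 and Rbl2 of the size of the spread between libraries. Rb1 exceeded Rbl1 5.86-fold in replicate 1 and 5.92-fold in replicate 2, and Rbl2 7.42-fold and 6.45-fold. On the log2(TPM + 1) scale the ratios were 2.31 ± 0.0045 and 2.50 ± 0.13 (SD, n = 2). Rb1 held 76.1% ± 0.765 of the summed TPM of the family, Rbl1 12.9% ± 0.223 and Rbl2 11.0% ± 0.989 (SD, n = 2).

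At the transcript level the distance between Rb1 and its relatives was larger. Rb1-201, the single protein-coding transcript of Rb1, with 27 exons and 2763 coding bases, took 99.6% of Rb1 TPM in replicate 1 and 99.7% in replicate 2. In both Rbl1 and Rbl2 the leading transcript was annotated as a retained intron transcript with no coding sequence. Rbl1-202, of 2383 bases, covers 50.4% of the span of the gene at its 5′ side and took 75.5% of Rbl1 TPM in replicate 1 and 73.2% in replicate 2. Rbl2-204, of 1725 bases, covers 18.3% of the span at the 5′ side of Rbl2 and took 69.2% in replicate 1 and 78.2% in replicate 2. The full-length coding transcript Rbl1-201 had 0.79 TPM in replicate 1 against 0.29 TPM in replicate 2, and Rbl2-201 had 0.73 TPM in replicate 1 against 0.53 TPM in replicate 2. Counted by reads in place of TPM, Rbl1-201 held 31.0% and 13.6% of Rbl1 in replicates 1 and 2, and Rbl2-201 held 46.5% and 35.3% of Rbl2. Over coding transcripts alone, Rb1 exceeded Rbl1 33.1-fold in replicate 1 and 82.9-fold in replicate 2, and Rbl2 35.8-fold and 45.4-fold.

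**Figure D1:**
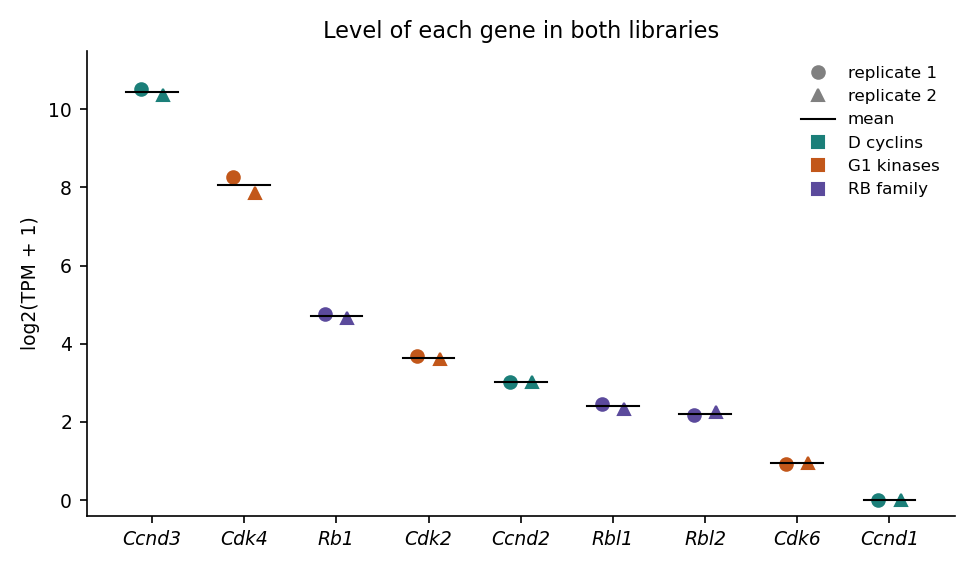
Level of each of the 9 genes as log2(TPM + 1) on the vertical axis, with circles for replicate 1, triangles for replicate 2, bars for the mean and colours for the families. Each family has a clear leader (Ccnd3, Cdk4 and Rb1), Cdk6 lies under 1 TPM and Ccnd1 at 0.

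The order of the 9 genes by mean TPM was Ccnd3, Cdk4, Rb1, Cdk2, Ccnd2, Rbl1, Rbl2, Cdk6 and Ccnd1, as the plot of levels shows. For all 8 pairs of neighbours in this order the ranges of the 2 libraries did not overlap, but the gaps differ in size. The lower library of Ccnd3 (1315 TPM) stood above the higher library of Cdk4 (308 TPM), whereas for Rbl1 and Rbl2 the corresponding values were 4.07 and 3.74 TPM. At least 1 TPM in both libraries was reached by 7 of the 9 genes, against 35.3% of all protein-coding genes. Cdk6 and Ccnd1 were the exceptions. Only Ccnd3 and Cdk4 reached 100 TPM in both. Libraries of 1 condition do not give a pattern across conditions, so no other gene was ranked by likeness to these.

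**Figure D2:**
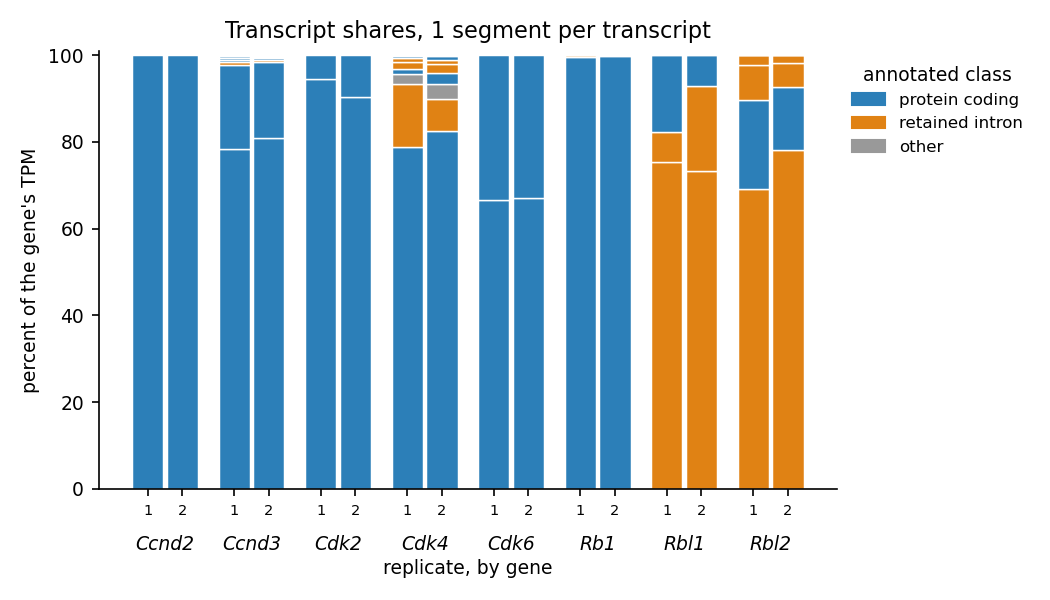
Share of each transcript in the gene's TPM (vertical axis, percent) for the 8 genes with more than 1 count, with replicate 1 left of replicate 2 and colours for the annotated class. Retained intron transcripts lead in Rbl1 and Rbl2, at 69.2% to 78.2%, and protein-coding transcripts lead in the other 6 genes.

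The leading transcript was the same in both libraries for all 6 of the genes with at least 1 TPM in both and at least 2 annotated transcripts, while 89% of 5714 such protein-coding genes had the same leader. Of these 6, Rbl1 and Rbl2 were led by a transcript outside the protein-coding class in both libraries, which also held for 22.9% of the 5714 genes. The plot of transcript shares gives every transcript of the 8 genes. Ccnd2 has 1 annotated transcript in the tables and is not among the 6.

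**Figure D3:**
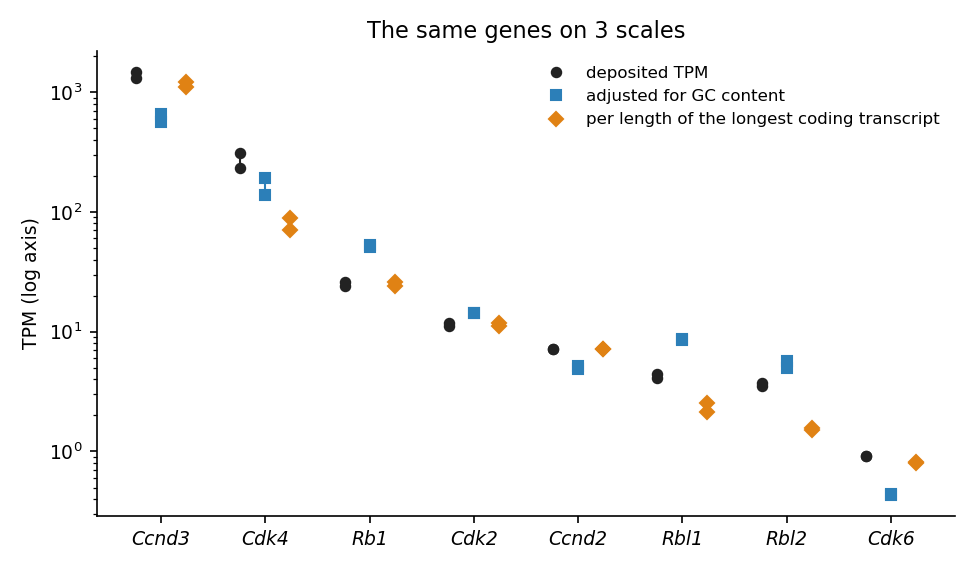
TPM of 8 of the genes (log axis) as deposited, adjusted for transcript GC content and recomputed per length of the transcript with the longest coding sequence, with both libraries of each joined by a line. Ccnd3, Cdk4, Rb1 and Cdk2 keep their order on all 3 scales, while Ccnd2, Rbl1 and Rbl2 change places under the GC adjustment.

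Levels of different genes were set beside their transcript GC content, since in these libraries expressed genes rich in GC had higher TPM. Among 7743 protein-coding genes with a mean of at least 1 TPM, the median of the lowest of 20 GC bins was 5.76 TPM in replicate 1 against 4.97 TPM in replicate 2, and the highest bin median was 33.6 and 35.6 TPM. The mean transcript GC content was 57.8% for Ccnd3, 54.8% for Cdk4, 53.5% for Ccnd2 and 56.8% for Cdk6. It was 42.1% for Rb1, 43.6% for Rbl1, 47.8% for Rbl2 and 49.8% for Cdk2. The RB family genes were thus all poorer in GC than the D cyclins. Moving every bin to the overall median put Ccnd3 at 609 ± 67.1 TPM, Cdk4 at 164 ± 36.5 TPM and Rb1 at 52.1 ± 1.40 TPM (SD, n = 2). On this scale Rbl1 (8.57 ± 0.185 TPM) and Rbl2 (5.35 ± 0.523 TPM) stood above Ccnd2 (5.004 ± 0.183 TPM) in mean, the reverse of the deposited order (SD, n = 2). How much of the GC relation is technical was not tested. The plot of the same genes on 3 scales shows Ccnd3, Cdk4 and Rb1 leading their families on each.

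**Figure D4:**
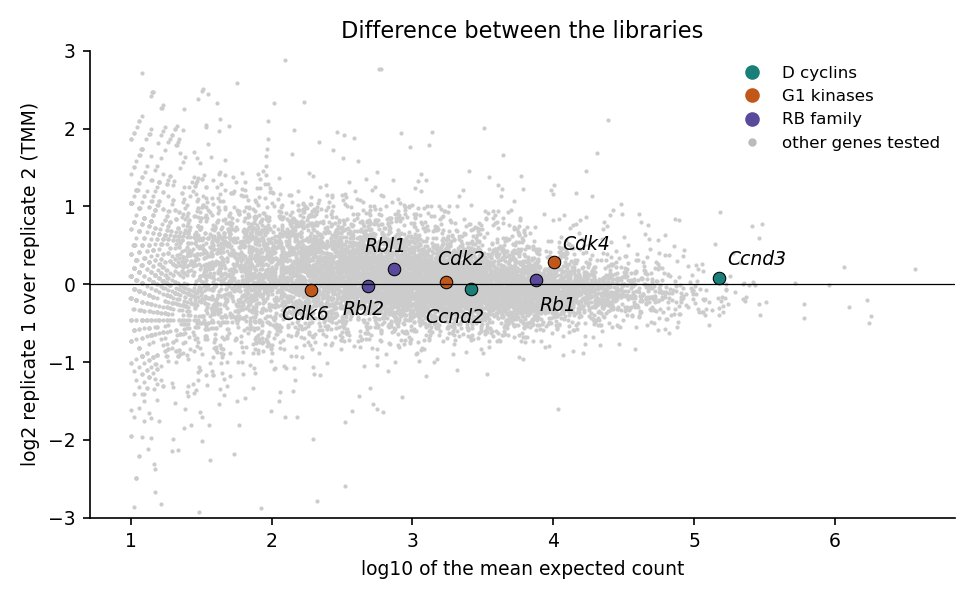
Difference between replicate 1 and replicate 2 (vertical axis, log2 after TMM scaling) against the mean expected count (log10) for 10445 genes, of which 39 lie beyond the plotted limits of 3. The 8 tested members, in colour, lie between −0.08 and 0.28.

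The log2 differences between the libraries lay between −0.08 and 0.28 for the members tested. Of the 8 genes with at least 20 summed counts, 4 passed a two-sided exact binomial test against the library size ratio, adjusted by Benjamini-Hochberg over all 10445 genes tested, and all 4 were higher in replicate 1. The same test called 59.3% of all genes, made up of 30.4% higher and 28.9% lower in replicate 1. It takes in counting error only, and compares these 2 libraries and not conditions. None of the 8 was called and at least 1.5-fold different, against 12.4% of all genes. With only 8 genes, neither count is read as a trait of the members. Cdk4 had the largest difference, at 1.21-fold higher in replicate 1 (log2 0.28, binomial adjusted p = 5.10e-40), and 43.2% of the genes tested differed at least as much. Rbl1 was 1.15-fold higher in replicate 1 (log2 0.20, binomial adjusted p = 0.0206), Ccnd3 1.06-fold higher (log2 0.08, binomial adjusted p = 5.14e-53) and Rb1 1.04-fold higher (log2 0.05, binomial adjusted p = 0.0417). The call for Rb1 was lost with DESeq2 size factors (binomial adjusted p = 0.158) and without a count minimum (binomial adjusted p = 0.0610). Cdk2, Ccnd2, Rbl2 and Cdk6 did not pass, with log2 differences of 0.03, −0.07, −0.02 and −0.08. The median absolute log2 difference was 0.07 over the 8 genes and 0.24 over all genes tested, which were not matched to the 8 for counts. The plot of differences between the libraries shows the 8 genes close to the zero line. In bulk RNA, fewer cells in a phase of the cycle and less RNA per cell cannot be told apart.

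**Figure D5:**
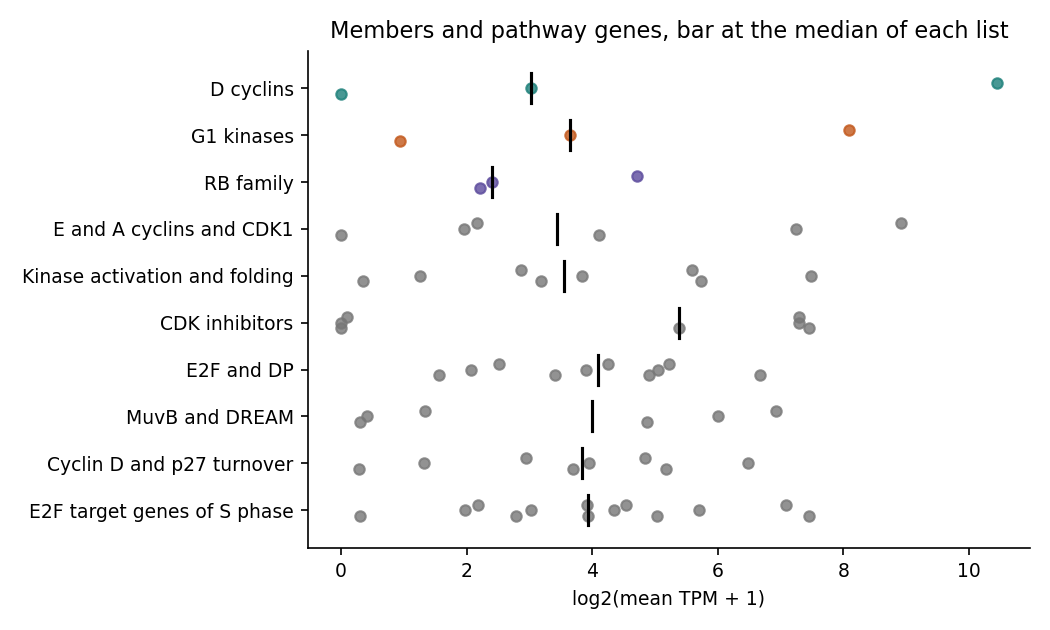
Mean TPM of the members and of the genes of 7 pathway lists on the log2(TPM + 1) axis, 1 point per gene, with a bar at the median of each list. Ccnd3 lies to the right of every listed pathway gene, and most lists span from near 0 to above 100 TPM.

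The genes that work with these 9 were read from 7 lists of together 58 genes, all matched, of which 49 reached 1 TPM in both libraries. The list of E and A cyclins and CDK1 also holds a B cyclin. Of its 6 genes 5 reached 1 TPM, and the median of all 6 was 9.89 TPM. Ccna2, the S phase cyclin A2, had 469 TPM in replicate 1 against 502 TPM in replicate 2. Ccne1, the cyclin E1 partner of CDK2, had 134 and 166 TPM. Cdk1, the kinase of mitosis, had 24.4 TPM in replicate 1 against 8.13 TPM in replicate 2 (log2 1.36, binomial adjusted p = 2.50e-37), and Ccna1, the germ cell cyclin A1, had 0 counts in both. The CDK2 partners Ccna2 and Ccne1 were therefore above Cdk2 itself, per length, in both libraries.

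Of the 7 CDK inhibitors, 4 reached 1 TPM. Cdkn1a (p21) had 155 TPM in replicate 1 against 194 TPM in replicate 2, Cdkn2c (p18, an inhibitor of CDK4 and CDK6) 139 and 173 TPM, and Cdkn1b (p27) 144 and 166 TPM. These 3 stood below Cdk4 in both libraries on the deposited scale, but their order depends on the scale. Their deposited levels lay above the level of Cdk4 per length of Cdk4-201 (88.7 TPM in replicate 1 against 70.1 TPM in replicate 2), where Cdk4 alone was rescaled. With GC adjustment Cdkn1b, at 281 TPM in replicate 1 and 345 TPM in replicate 2, lay above Cdk4, at 190.1 and 139 TPM. Cdkn2c, at 114 and 158 TPM, lay above Cdk4 in replicate 2, and Cdkn1a, at 111 and 132 TPM, lay below it in both. Cdkn1c and Cdkn2b had 0 counts in both.

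All 10 E2F and DP genes reached 1 TPM, with a median of 16.0 TPM. The activator E2f2 had 106 TPM in replicate 1 against 94.95 TPM in replicate 2, E2f1 39.1 and 33.6 TPM and E2f3 33.2 and 31.0 TPM. E2f3 had only 843 counts in replicate 1 and 400 in replicate 2, against 7517 and 4925 for E2f1. Its TPM therefore rests on a much shorter effective length than that of E2f1 and, like that of Cdk4, depends on the transcript assignment. Tfdp1, a DNA-binding partner of E2Fs, was lowest at 2.24 and 1.64 TPM.

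Through the DREAM complex p107 and p130 repress cell cycle genes. The list for MuvB and DREAM also holds Mybl2, which encodes a MuvB partner outside DREAM. In it Lin37 had 134 TPM in replicate 1 against 107 TPM in replicate 2. Mybl2 had 68.3 and 58.5 TPM, and the histone-binding subunit gene Rbbp4 32.7 and 23.97 TPM. Lin52 was lowest at 0.30 and 0.16 TPM, and 4 of the 6 reached 1 TPM. Of the genes for kinase activation and folding, 7 of 8 reached 1 TPM. The CDK4 chaperone gene Cdc37 had 180 TPM in replicate 1 against 177 TPM in replicate 2, the phosphatase gene Cdc25b 59.7 and 44.7 TPM and the chaperone gene Hsp90ab1 59.7 and 34.5 TPM. Cdk7, the CDK-activating kinase, was lowest at 0.30 and 0.26 TPM. Of the genes for the turnover of D cyclins and p27, 7 of 8 reached 1 TPM. The ubiquitin ligase scaffold gene Cul4a had 82.0 TPM in replicate 1 against 95.03 TPM in replicate 2, Cks1b 39.4 and 31.1 TPM and Ambra1, a receptor for D cyclin degradation, 27.9 and 27.4 TPM. Skp2, the receptor for p27 degradation, was lowest at 0.24 and 0.21 TPM.

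Of the 13 E2F target genes of S phase, 12 reached 1 TPM. The ribonucleotide reductase gene Rrm2 had 221 TPM in replicate 1 against 126 TPM in replicate 2, and the helicase genes Mcm2 153 and 117 TPM and Mcm5 58.0 and 44.0 TPM. In the binomial test between the libraries, of the S phase targets, 11 of 13 tested were called higher in replicate 1 and 0 lower, and of the CDK inhibitors 0 of 4 tested were called higher and 4 lower. Among E2F and DP genes 7 were higher and 3 lower of 10 tested. In the list of E and A cyclins and CDK1, 3 were higher and 2 lower of 5 tested. The 2 lower ones were Ccna2 (log2 −0.09) and Ccne1 (log2 −0.28). For MuvB and DREAM 3 were higher and 0 lower of 6, for kinase activation and folding 3 and 1 of 8, and for turnover 2 and 2 of 8. Over all 54 pathway genes tested, 29 were higher and 12 lower in replicate 1, against 30.4% and 28.9% of all genes. Among the S phase targets Rrm2 differed by 0.75 and Mcm2 by 0.33 on the log2 scale, and among the inhibitors Cdkn2c by −0.40 and Cdkn1a by −0.26.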

How the data were processed

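Per the labels and the deposited description files, poly(A) RNA was sequenced in paired-end mode, and values refer to mm10 and GENCODE M4. Aligner, quantifier, versions and strand setting count as not given in the sources used here. Expected counts, as deposited, estimate the fragments of a gene or transcript and need not be whole. The deposited TPM and FPKM are length-scaled by the authors, and the deposited percent values are each transcript's share of its gene's TPM. The estimation can split reads among overlapping transcripts.

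Symbols, coordinates, transcript classes and GC content (unweighted mean over annotated transcripts) were read from GENCODE M21 (also mm10), which matched 42462 of 43346 gene rows. Another 26345 rows that name no such gene held 5 and 4 counts and were left out. Promoter windows came from RefSeq, which held 6 of the 9 genes (Cdk2, Cdk4, Cdk6, Ccnd3, Rbl1 and Rbl2). The members and gene lists were chosen with earlier results of these data known, so no test was made over the members alone. Named genes are all members, and the 3 highest and the lowest of each pathway list, of which 1 is not reported here.

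Log2 ratios used TPM + 1, which understates ratios to low genes. Expected counts, rounded to whole numbers, were compared between libraries by exact two-sided binomial tests at the TMM-scaled ratio of edgeR 4.0.16 (minimum 20 summed counts, Benjamini-Hochberg, threshold 0.05). The quasi-likelihood test of edgeR has no residual degrees of freedom with 1 library a side. On counts simulated for this comparison over 10450 genes, with counting noise alone, the test called 94.0% of 50 genes at a true fold of 2, 85.4% of 48 at 0.5, 60.0% of 50 at 1.25, 66.0% of 50 at 0.8 and 0.0975% of unchanged genes. The simulated counts hold no variation between libraries beyond counting, as the test itself assumes. These rates therefore do not carry over to the real libraries, between which the test called 59.3% of all genes. GC adjustment moved the median log2(TPM) of each of 20 equal-count bins to the overall median. Alternatives were other pseudocounts, FPKM, posterior means, other totals and thresholds, DESeq2 1.42.0 size factors, GC adjustment and leaving out each replicate. Scaling to the longest coding transcript was added after the data were seen. Scripts ran in R 4.3.3 and in Python 3.11.15 with pandas 2.3.3 and scipy 1.17.1.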

Additional observations from a re-analysis of the deposited data

How the results depend on the processing

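All 6 ratios within families kept their direction under the 54 alternatives run, but many of these could not have changed it. Other pseudocounts, FPKM and other totals treat both genes of a library alike, and leaving out a replicate repeats the value of 1 library. The GC adjustment, the transcript length and the posterior means could have changed a direction. The sizes of the ratios depended most on GC content, on the transcript length used and, for low genes, on the pseudocount. Under the GC adjustment, Ccnd3 over Ccnd2 was 6.66, Ccnd3 over Ccnd1 9.25, Cdk4 over Cdk6 6.82, Cdk4 over Cdk2 3.42, Rb1 over Rbl1 2.47 and Rb1 over Rbl2 3.07 (log2). Per length of the longest coding transcript, they were 7.15, 10.17, 5.47, 2.68, 2.97 and 3.36 in the same order. With a pseudocount of 0.1 TPM, Ccnd3 over Ccnd2 was 7.59, over Ccnd1 13.76, Cdk4 over Cdk6 8.04, Rb1 over Rbl1 2.53 and over Rbl2 2.76. With 0.5 TPM, Ccnd3 over Ccnd1 was 11.44, Cdk4 over Cdk6 7.56, Rb1 over Rbl1 2.43 and over Rbl2 2.63. At 1 TPM Ccnd3 over Ccnd1 was 10.44, and since Ccnd1 had 1 count in all, its log2 values reflect the pseudocount and are no fold. With globin and mitochondrial genes taken out of the total, Ccnd3 over Ccnd1 was 10.91 and Rb1 over Rbl1 2.37. Rb1 over Rbl1 was 2.32 with FPKM and 2.32 with posterior means. Its spread between libraries was so small that every such setting exceeded it.

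Leaving out either replicate gave ranges of 7.34 to 7.50 for Ccnd3 over Ccnd2, 6.92 to 7.34 for Cdk4 over Cdk6, 4.26 to 4.59 for Cdk4 over Cdk2 and 2.41 to 2.59 for Rb1 over Rbl2. With a 1.5-fold minimum added to the binomial test, 0 of 8 members and 1294 genes were called, against 4 and 6193 without it. The adjusted p of Rb1 ranged from 8.33e-06 with library totals to 0.158 with DESeq2 size factors, and was 0.0610 without a count minimum. Library totals turned the log2 difference of Rbl2 to 0.035, against −0.02 with TMM, not called in either case. Members over the TPM threshold numbered 5 at 5 TPM and 8 at 0.5 TPM. No paired analysis was possible because both libraries belong to 1 group. Depth limits Ccnd1, for which 3 counts are 0.0112 and 0.0147 TPM in replicates 1 and 2, and Cdk6, Rbl1 and Rbl2 at transcript level.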

Other observations

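Several members overlap other annotated genes on the opposite strand, and the strand setting of the counting counts as not given in the sources used here. LTO1, whose annotated 3′ side overlaps that of Ccnd1 on chromosome 7 (144915100 to 144931701), had 1024 counts in replicate 1 and 634 in replicate 2, while Ccnd1 itself had 0 and 1. Bysl overlaps the end of Ccnd3 and had 35.7 TPM in replicate 1 against 28.9 TPM in replicate 2, and Tspan31 overlaps the end of Cdk4 with 12.8 and 13.5 TPM. Pmel, which overlaps the start of Cdk2, had 0 counts in both libraries. Lpar6, inside the span of Rb1, had 6 counts in replicate 1 and 0 in replicate 2, and Rcbtb2, which overlaps its end, had 92 and 45 counts. Aktip, which overlaps Rbl2, had 40 counts in replicate 1 and 26 in replicate 2.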
